A study of Mus musculus with 24 samples.

Results

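Macrophage genes were followed in mouse heart fibroblasts that had been labelled with 1 of 4 conditions and harvested at day 3 or day 7. The set holds 47 named genes of the macrophage program, and a gene belonged when it had at least 10 counts in at least 3 of the 24 libraries. Of the 47, 46 belonged, out of 14974 of 35727 gene identifiers that met the same minimum. The 1 that did not was Ccr2, the receptor for a monocyte chemoattractant, with 1 count in all 24 libraries. Cd86, a costimulatory ligand for T cells, reached the minimum only through the Erg day 7 libraries.

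The groups were control fibroblasts and cells labelled Erg, Sox17 or SEG, each at day 3 and day 7, with 3 libraries per group and 8 groups. All were heart fibroblasts grown in EGM2, an endothelial growth medium. The study compared these conditions for how far the cells took on an endothelial identity. It calls the 3 treated conditions aiECs, a name the labels do not spell out, and they do not spell out SEG either. The labels give neither the mouse strain, age and sex nor how the factors were delivered, and nothing in them ties a group's libraries to separate cultures. P-values therefore measure the spread between libraries, which may be technical.

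Macrophages are phagocytes of the blood lineage that live in most tissues, the heart included, where they engulf debris and shape repair. Their survival depends on the receptor Csf1r and its ligands, which fibroblasts secrete, and their identity on the transcription factor PU.1, the product of Spi1. PU.1 and Erg both belong to the ETS family, whose members bind DNA around a GGAA core. Fibroblast cultures from tissue can carry macrophages along. In bulk RNA a change in the number of macrophages and a change in the RNA of each macrophage cannot be told apart. The 46 genes were read as 36 leukocyte members, which are largely restricted to blood cells, and 10 members that other cell types also express (Cd14, Cd68, Ctss, Gpnmb, Lcp1, Tlr2, Cd74, Mrc1, Fcgr2b and Cd52).

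RefSeq promoter windows on GRCm38.p6 were matched for 34 of the 47 genes. Of these windows, 5 are shown because their genes span the patterns described further on. C1qb, Fcgr1 and Vav1 rose with Erg at day 7 by close to the typical amount. Pf4 rose by less, and Trem2 was already high at day 3. Each window is the 250 bases just before the transcription start, written on the gene's own strand, and capitals mark AGGAAGT, a common PU.1 site, or its complement ACTTCCT.
C1qb, chr4:136886201-136886450, minus strand: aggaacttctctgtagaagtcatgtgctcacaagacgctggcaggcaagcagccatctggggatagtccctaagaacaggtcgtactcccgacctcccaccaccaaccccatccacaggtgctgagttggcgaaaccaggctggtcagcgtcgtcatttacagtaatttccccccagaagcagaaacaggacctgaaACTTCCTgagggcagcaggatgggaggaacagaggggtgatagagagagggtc
Fcgr1, chr3:96293970-96294219, minus strand: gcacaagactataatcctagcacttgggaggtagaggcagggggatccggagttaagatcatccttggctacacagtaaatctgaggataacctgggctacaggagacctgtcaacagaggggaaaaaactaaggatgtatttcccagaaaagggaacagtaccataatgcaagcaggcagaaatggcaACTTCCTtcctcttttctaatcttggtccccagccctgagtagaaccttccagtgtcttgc
Vav1, chr17:57278850-57279099, plus strand: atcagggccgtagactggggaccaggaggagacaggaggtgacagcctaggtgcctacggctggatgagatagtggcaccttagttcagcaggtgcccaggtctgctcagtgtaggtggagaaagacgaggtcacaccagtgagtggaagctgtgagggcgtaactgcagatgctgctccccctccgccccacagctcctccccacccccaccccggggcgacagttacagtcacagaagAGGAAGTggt
Pf4, chr5:90772185-90772434, plus strand: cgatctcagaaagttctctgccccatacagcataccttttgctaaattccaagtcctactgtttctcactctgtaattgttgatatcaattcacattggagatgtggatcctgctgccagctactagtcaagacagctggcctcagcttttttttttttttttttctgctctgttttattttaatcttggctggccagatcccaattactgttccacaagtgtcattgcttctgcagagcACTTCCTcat
Trem2, chr17:48346151-48346400, plus strand: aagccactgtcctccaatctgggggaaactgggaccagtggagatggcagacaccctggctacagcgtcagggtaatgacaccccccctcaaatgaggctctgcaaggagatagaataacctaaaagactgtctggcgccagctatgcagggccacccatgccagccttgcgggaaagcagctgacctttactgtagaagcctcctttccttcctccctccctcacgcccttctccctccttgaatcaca

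In the 250 bases before the start, AGGAAGT was present on either strand in 10 of the 34 matched genes and in 7.69% of 32851 promoters. A gene was counted when any of its windows held a match, while the promoters were counted singly. The 10 were Apbb1ip, C1qb, C1qc, Fcgr1, Lyz2, Mrc1, Pf4, Ptpn6, Ptprc and Vav1. They include both genes that rose with Erg and Apbb1ip, which fell. The bare core GGAA was in all 34 and in 93.4% of promoters. The longer CCGGAAGT, an element bound by many ETS factors, was in 1 of 34, Ms4a7, and in 2.88% of promoters. In all, 9 overlapping motifs were searched, and AGGAAGT was picked for display after its matches were seen. A match is only a description of letters.

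Total counts ran from 18794422 to 44586227 per library. The factor named in the label was high where the label says so. Erg was at 4327 to 7133 CPM (counts scaled to one common library size) in the Erg libraries and at 836 to 1281 CPM in the SEG libraries, and at most 0.113 CPM in control and Sox17 libraries. Sox17 was at 616 to 1653 CPM in the Sox17 libraries, at 461 to 1054 CPM in the SEG libraries and at 0 in the control libraries. Replicate 1 of Sox17 and replicate 1 of SEG at day 7 stand apart from their groups. Some counts and calls that change without them are given both ways, and others only within ranges over all leave-outs. Markers of the labelled cell type were abundant: 12 fibroblast genes summed to 28800 to 30970 CPM in the day 7 control libraries.

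Levels are compared between members per kilobase of the longest coding transcript. At day 7 the control mean for Lyz2, which encodes lysozyme, was 72.3 CPM per kilobase of transcript. It was 18.3 for the complement subunit gene C1qb and 0.217 for Ptprc, the pan-leukocyte antigen CD45. The member with the highest level per kilobase in control cells was Gpnmb, a lysosomal glycoprotein, at 361. Apbb1ip, an adaptor that links Rap1 to integrins, followed Lyz2 at 34.8.

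**Figure D1:**
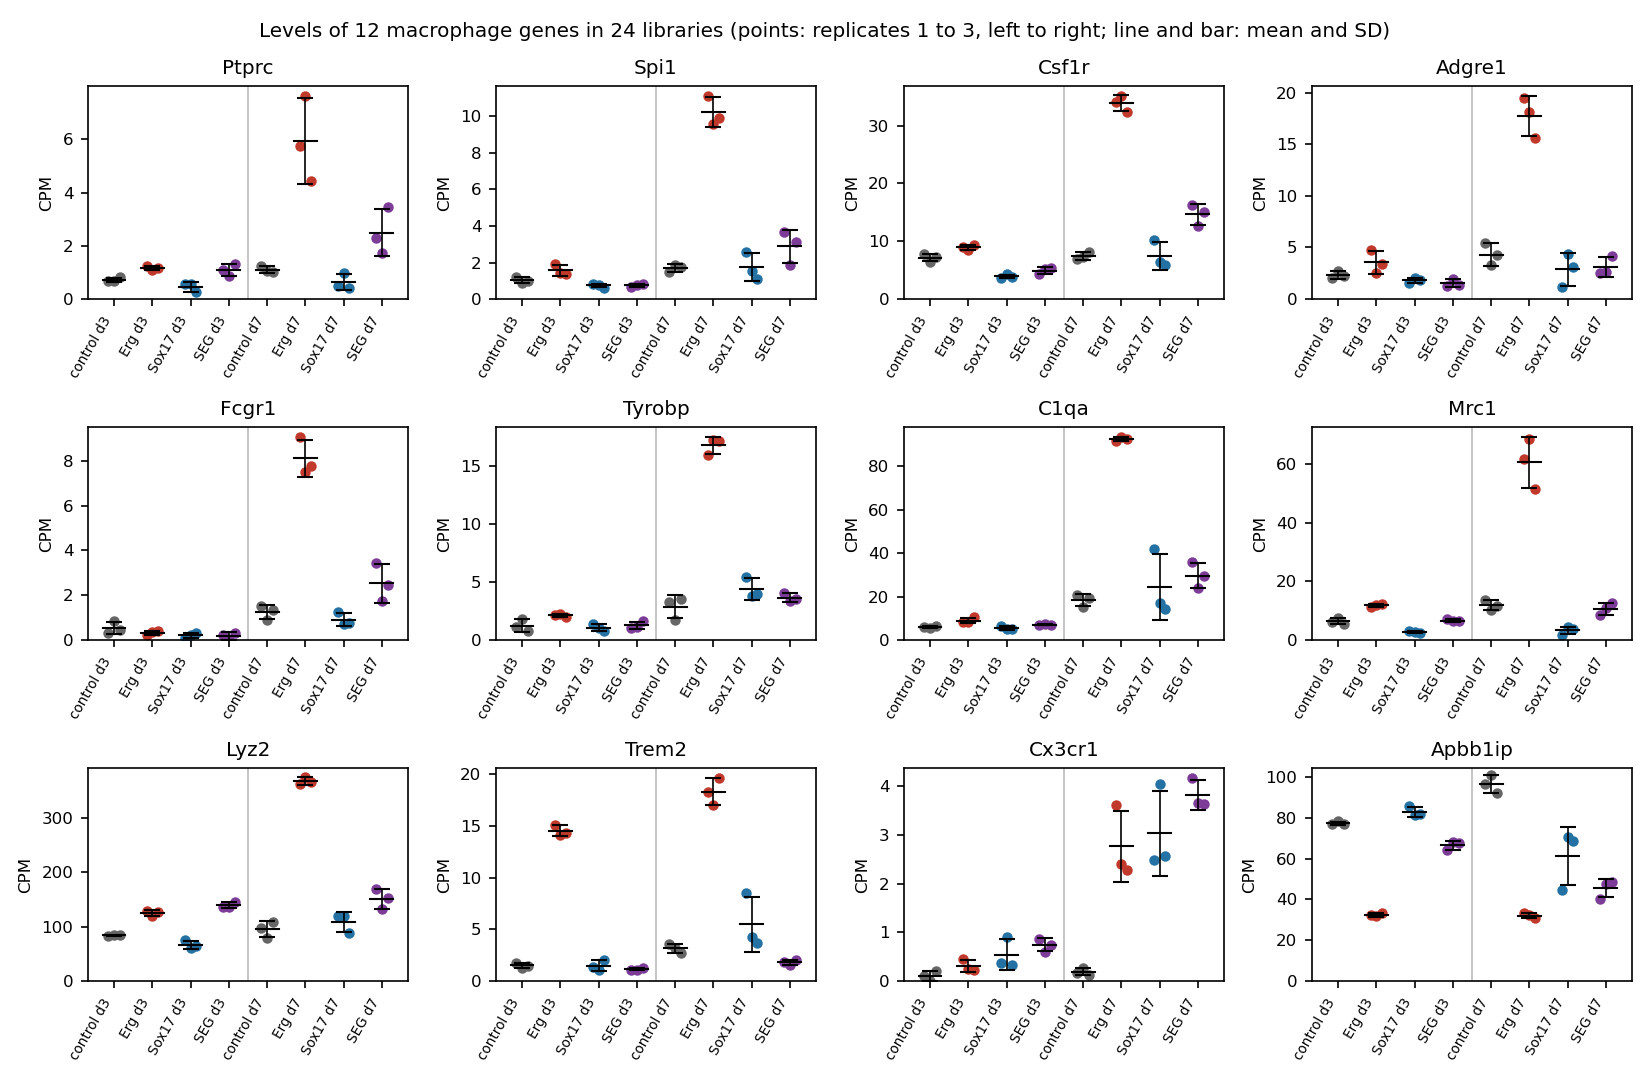
CPM of 12 macrophage genes in every library, by group, with points for replicates 1 to 3 from left to right and the mean and SD of 3 libraries. Outside the panels of Cx3cr1 and Apbb1ip, every Erg day 7 point lies above all points of the other groups, as with Csf1r at 32.4 to 35.2 CPM against at most 16.3 CPM elsewhere.

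The members changed most with Erg at day 7. Against day 7 control, 41 of the 46 members were higher and 4 lower. Over all 14804 genes tested, 23.7% were higher and 24.8% lower. The median log2 change was 2.27 over the members and -0.02 over all genes tested. Of the 36 leukocyte members, 35 were higher and 1, Apbb1ip, was lower, with a median of 2.36. The counts of 41 and 35 include Cd86, which was tested only because of its Erg day 7 libraries and is no support. The same holds for any call of Cd86 in the other comparisons that use these libraries. Summed, the 36 leukocyte members stood at 335.6 to 383.4 CPM in control and at 1140 to 1235 CPM with Erg, a log2 ratio of 1.70. Of the 10 members that other cell types also express, 6 were higher and 3 lower, and Cd74, the class II invariant chain, was not called.

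Genes that mark the lineage rose together. Spi1 stood at 1.47, 1.86 and 1.78 CPM in day 7 control and at 11.1, 9.59 and 9.90 CPM with Erg, so the lowest Erg library lay far above the highest control. The log2 change was 2.57 (SE 0.26, adjusted p = 9.32e-08). Csf1r, the receptor for colony-stimulating factor 1, was at 6.86, 7.32 and 8.21 CPM in control and at 34.0, 35.2 and 32.4 CPM with Erg, a change of 2.18 (SE 0.16, adjusted p = 1.38e-09). These libraries did not overlap either. Adgre1, which encodes the F4/80 antigen, rose from 5.44, 3.27 and 4.23 CPM to 19.5, 18.1 and 15.6 CPM, by 2.04 (SE 0.33, adjusted p = 3.86e-05). Ptprc was at 1.25, 1.04 and 1.01 CPM in control and at 5.73, 7.63 and 4.42 CPM with Erg, a change of 2.42 (SE 0.31, adjusted p = 2.51e-06). In each of these the Erg libraries were apart from the controls. The share of all tested genes whose libraries were apart was not computed, here or below. Such statements only describe the levels of the genes named.

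All 6 Fc receptor and adaptor genes rose, with a median log2 change of 2.62. Fcer1g, the signalling chain shared by Fc receptors, was at 2.10, 2.27 and 3.60 CPM in control and at 17.3, 17.3 and 17.6 CPM with Erg. Its change was 2.70 (SE 0.20, adjusted p = 1.01e-09). Tyrobp, the adaptor DAP12 that Trem2 signals through, was at 3.29, 1.73 and 3.55 CPM in control and at 15.9, 17.3 and 17.1 CPM with Erg, a change of 2.55 (SE 0.26, adjusted p = 1.07e-07). Fcgr1, the high-affinity IgG receptor, was at 1.53, 0.909 and 1.35 CPM and at 9.05, 7.48 and 7.77 CPM, a change of 2.68 (SE 0.40, adjusted p = 1.51e-05). None of these 3 genes had an Erg library within the control range.

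The 3 subunits of complement C1q, which tags debris for uptake, changed by nearly the same amount. C1qa was at 20.7, 15.1 and 19.5 CPM in control and at 91.8, 93.7 and 92.8 CPM with Erg, a change of 2.33 (SE 0.28, adjusted p = 7.65e-07). C1qb was at 22.4, 16.3 and 20.9 CPM and at 100.4, 99.4 and 107 CPM, a change of 2.36 (SE 0.25, adjusted p = 1.75e-07). C1qc was at 15.1, 13.6 and 16.1 CPM and at 77.8, 87.0 and 78.7 CPM, a change of 2.44 (SE 0.16, adjusted p = 2.51e-10). C1qb and C1qc carry an AGGAAGT in their promoter windows. C1qa had no matched window.

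Among 9 lysosomal, secreted and effector genes, 8 rose. Lyz2 was at 97.9, 79.2 and 108 CPM in control and at 362, 376 and 365 CPM with Erg, a change of 1.95 (SE 0.12, adjusted p = 9.80e-11). Ctss, the protease cathepsin S, was at 14.2, 12.7 and 14.6 CPM and at 51.9, 58.6 and 51.8 CPM, a change of 1.97 (SE 0.16, adjusted p = 4.69e-09). Cd68, a lysosomal membrane protein, was at 11.7, 10.2 and 11.6 CPM and at 51.3, 43.9 and 48.9 CPM, a change of 2.11 (SE 0.19, adjusted p = 1.62e-08). Levels without overlap held for all 3. Cd74 was at 0.794, 0.136 and 0.719 CPM in control and at 0.277, 0.0489 and 0.457 CPM with Erg, and these libraries overlapped (log2 change -0.95, SE 0.76, adjusted p = 0.315).

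The scavenger, lectin and pattern receptors split, with 6 of 9 higher and 3 lower. The mannose receptor gene Mrc1 was at 13.7, 10.4 and 11.7 CPM in control and at 61.8, 68.6 and 51.4 CPM with Erg, a change of 2.35 (SE 0.21, adjusted p = 2.26e-08). Clec4n, which encodes the fungal receptor Dectin-2, was at 0.397, 0.727 and 0.550 CPM and at 8.87, 9.10 and 8.99 CPM, a change of 3.98 (SE 0.30, adjusted p = 1.66e-09). The beta-glucan receptor gene Clec7a changed by 3.46 (SE 0.37, adjusted p = 1.77e-07). Those that went the other way are also expressed outside the blood lineage. Gpnmb was at 1367, 1324 and 1317 CPM in control and at 881, 846 and 894 CPM with Erg (log2 change -0.61, SE 0.07, adjusted p = 3.51e-07). Tlr2, a sensor of bacterial lipoproteins, was at 29.6, 30.2 and 26.5 CPM and at 19.8, 21.1 and 22.6 CPM (log2 change -0.44, SE 0.10, adjusted p = 0.00108). Cd14, the co-receptor for endotoxin, was at 5.16, 3.55 and 3.26 CPM and at 2.22, 3.23 and 2.44 CPM (log2 change -0.60, SE 0.20, adjusted p = 0.0210). The Cd14 call was lost without control replicate 1 (-0.38, adjusted p = 0.163), Erg replicate 1 (-0.49, adjusted p = 0.0934) or Erg replicate 3 (-0.55, adjusted p = 0.0774), and with no filter on low counts (-0.55, adjusted p = 0.0608).

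All 8 integrins and other leukocyte surface genes were called higher. Of these, Cd86 was tested only because of its Erg day 7 libraries, so its call is no support. The other 7 covered a wide range of log2 changes, from 0.73 to 3.13. Ms4a7, a membrane protein of tissue macrophages, was at 1.76, 1.41 and 2.12 CPM in control and at 13.5, 16.2 and 16.7 CPM with Erg, a change of 3.13 (SE 0.30, adjusted p = 4.94e-08). Cd86 was at 0, 0.136 and 0.0846 CPM and at 1.20, 1.42 and 1.37 CPM. At the low end stood Itgb2, the beta-2 integrin chain, at 9.81, 9.82 and 10.9 CPM and at 15.7, 18.8 and 16.2 CPM, a change of 0.73 (SE 0.16, adjusted p = 0.000817). The tetraspanin gene Cd53 changed by 0.87 (SE 0.17, adjusted p = 0.000268).

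Among 6 signalling and cytoskeletal genes, 5 rose and Apbb1ip fell. Lcp1, the leukocyte actin bundler, was at 6.18, 5.23 and 6.05 CPM in control and at 27.9, 29.7 and 21.6 CPM with Erg, a change of 2.18 (SE 0.24, adjusted p = 2.36e-07). Aif1, which encodes the calcium-binding protein IBA1, was at 0.113, 0.182 and 0.465 CPM and at 2.08, 2.98 and 2.07 CPM, a change of 3.15 (SE 0.61, adjusted p = 0.000280). Apbb1ip was at 96.6, 101 and 92.2 CPM and at 33.4, 32.2 and 30.7 CPM (log2 change -1.59, SE 0.12, adjusted p = 1.34e-09). It is grouped with the leukocyte members, yet after Lyz2 it had the highest level per kilobase of them in day 7 control, and it was the 1 leukocyte member that fell.

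Other cell types moved beside these genes. Between day 7 control and Erg libraries, the fibroblast list went from 28800 to 30970 CPM down to 12310 to 14420 CPM, and 10 of its 12 genes fell. The 10 endothelial markers summed to 28.7 to 32.3 CPM in control and to 165 to 176 CPM with Erg, and 8 of them rose. The 6 smooth muscle and pericyte markers summed to 90.3 to 104.7 CPM and to 483 to 536.5 CPM. The 8 cardiomyocyte markers summed to 75.6 to 94.5 CPM and to 10.7 to 14.0 CPM. The 12 interferon response genes summed to 3032 to 3363 CPM in control and to 1641 to 1938 CPM with Erg, and 5 of them fell. Over all genes tested, 23.7% were higher and 24.8% lower. Whether the shifts of these lists had a part in the macrophage genes was not tested.

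Marker lists of other blood cells were summed in the same way. For T and NK cells, 9 of 11 genes were under 1 CPM in every library, and Cd3e and Ncr1 were at 0. The list summed to 0.397 to 0.545 CPM in day 7 control and to 0.880 to 1.57 CPM with Erg. B cell markers summed to 2.16 to 2.50 CPM and to 0.489 to 0.640 CPM, with 5 of 6 genes under 1 CPM everywhere. Neutrophil markers summed to 1.19 to 1.93 CPM and to 3.42 to 4.08 CPM, with 7 of 10 under 1 CPM everywhere and Retnlg at 0. With SEG at day 7 they summed to 12.7 to 24.3 CPM, most of it from Mmp9, a secreted protease. Mast cell markers summed to 4.0 to 4.76 CPM and to 1.42 to 1.83 CPM, and Tpsb2 was at 0. Dendritic cell markers summed to 4.99 to 8.0 CPM and to 8.38 to 9.01 CPM, with Cd209a at 0. Erythroid genes summed to 0.719 to 1.13 CPM and to 3.23 to 4.27 CPM, with 5 of 6 under 1 CPM everywhere. The 6 platelet genes, which include Pf4, summed to 5.25 to 5.90 CPM and to 10.9 to 12.9 CPM. The part of these cells in the result was not tested.

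At day 3 the Erg effect was smaller. Against day 3 control, 22 of 46 members were higher and 4 lower, beside 22.6% and 23.5% of all genes tested. The median log2 change was 0.70 over the members and -0.01 over all genes. Those lower were Cd14, Apbb1ip, Cd53 and Pf4. The Pf4 call (-0.51, adjusted p = 0.0481) was lost without control replicate 1 (adjusted p = 0.107) or 2 (0.146) or Erg replicate 2 (0.169) or 3 (0.133), with no filter (0.0965), with other size factors (0.0625) and by DESeq2 (0.0538). Trem2, a lipid receptor of macrophages, was the exception in size. It was at 1.78, 1.29 and 1.48 CPM in day 3 control and at 15.1, 14.1 and 14.4 CPM with Erg, a change of 3.26 (SE 0.28, adjusted p = 7.21e-09). At day 7 it was at 3.63, 3.18 and 2.71 CPM in control and at 18.3, 17.1 and 19.7 CPM with Erg, a change of 2.54 (SE 0.25, adjusted p = 8.01e-08). The Trem2 libraries were apart at both days, and most of its final level was in place at day 3.

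Smaller rises at day 3 passed for Ms4a7 (1.62, SE 0.35, adjusted p = 0.000785), Cd68 (1.25, SE 0.20, adjusted p = 2.57e-05), Fcer1g (0.98, SE 0.22, adjusted p = 0.000914) and Mrc1 (0.87, SE 0.22, adjusted p = 0.00281). Lyz2 was at 83.0, 84.3 and 85.6 CPM in day 3 control and at 129, 119 and 126 CPM with Erg, a change of 0.57 (SE 0.12, adjusted p = 0.000605). Several lineage genes did not pass at day 3, among them Spi1 (0.59, SE 0.30, adjusted p = 0.115), Csf1r (0.32, SE 0.16, adjusted p = 0.117) and Ptprc (0.68, SE 0.35, adjusted p = 0.130). Gpnmb and Tlr2 were higher with Erg at day 3 and lower at day 7. Gpnmb was at 499, 543 and 536 CPM in day 3 control and at 1007, 954 and 960 CPM with Erg (0.89, SE 0.07, adjusted p = 2.03e-09). Tlr2 was at 11.2, 11.5 and 10.3 CPM and at 26.7, 25.6 and 23.9 CPM (1.20, SE 0.10, adjusted p = 8.41e-09). Apbb1ip was already low, at 32.2, 31.8 and 33.5 CPM against 76.9, 78.3 and 76.8 CPM (log2 change -1.25, SE 0.12, adjusted p = 3.65e-08).

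The difference between the Erg effects at the 2 days was tested directly. It was higher at day 7 for 32 of 46 members and lower for 2, Gpnmb (-1.50, SE 0.10, adjusted p = 2.22e-09) and Tlr2 (-1.64, SE 0.14, adjusted p = 9.76e-08). Of all genes tested, 9.34% were higher and 10.4% lower. The median was 1.59 over the members and -0.03 over all genes. Csf1r, C1qc and Spi1 grew by 1.86 (SE 0.23), 1.88 (SE 0.23) and 1.99 (SE 0.39), with adjusted p of 7.44e-06, 7.44e-06 and 0.00111. For Trem2 the change of the effect did not pass (-0.72, SE 0.37, adjusted p = 0.193). This comparison shares its libraries with the Erg comparisons at each day.

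**Figure D2:**
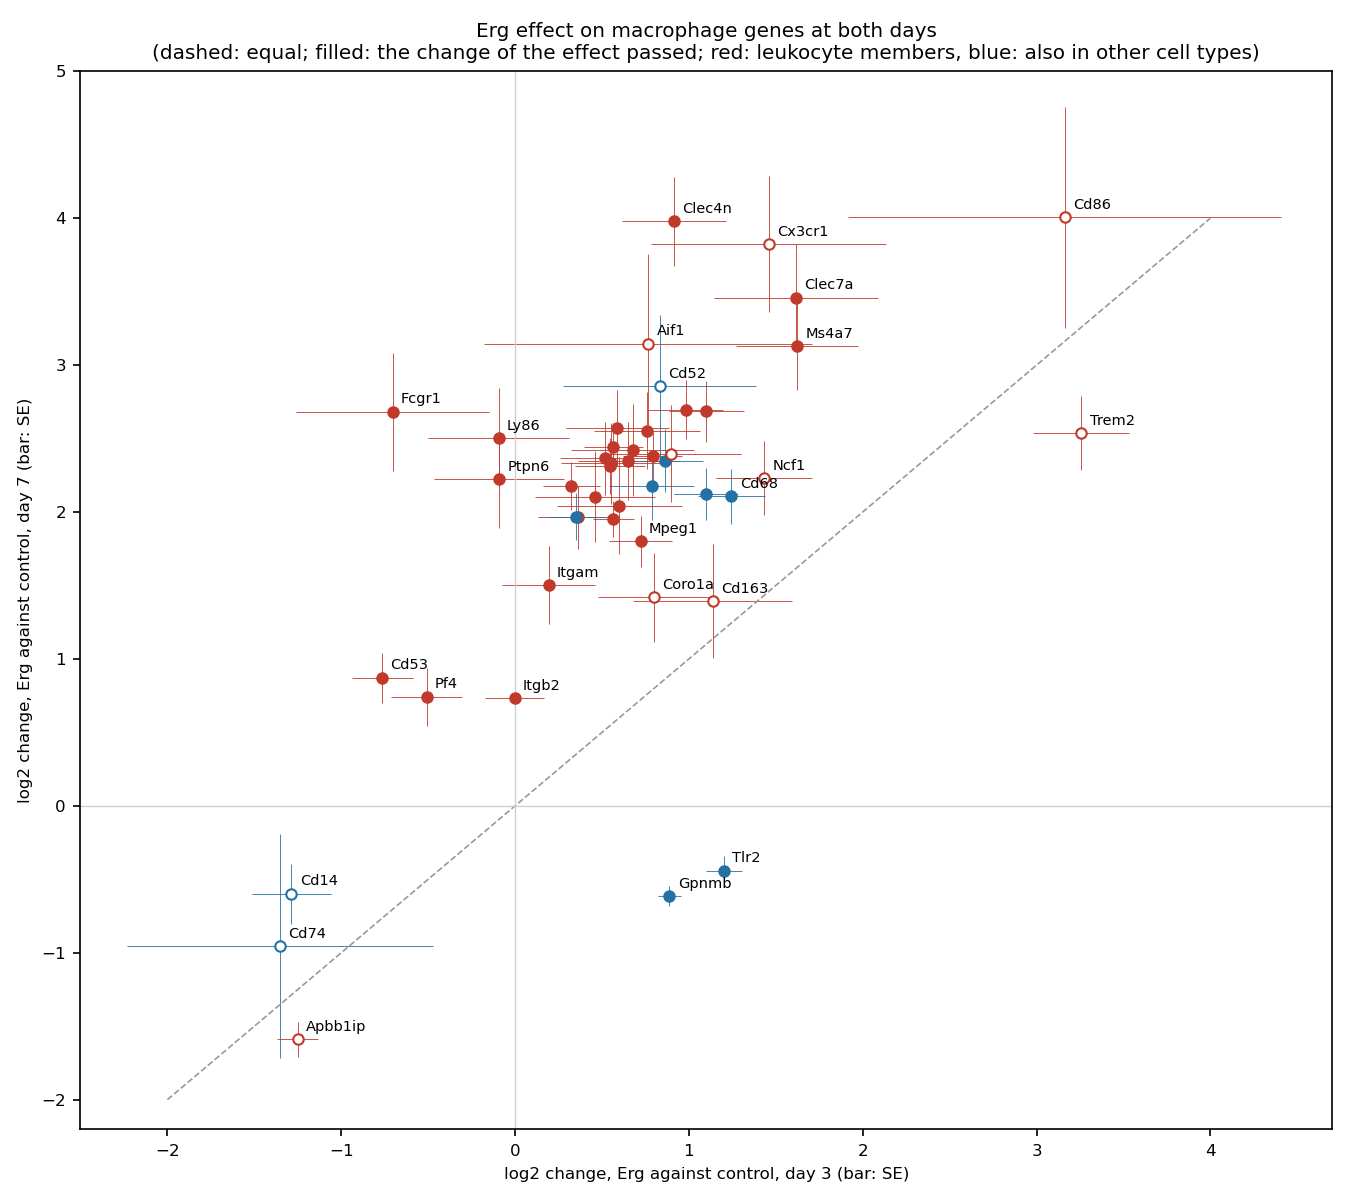
Log2 change of each of 46 members with Erg against control at day 3 (x axis) and day 7 (y axis), with SE bars, filled where the change of the effect passed. The medians are 0.70 at day 3 and 2.27 at day 7, and Trem2, Gpnmb, Tlr2 and Apbb1ip lie below the line of equal effects.

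In every condition more members were called higher than lower at day 7 against day 3. In control cells, 21 of 46 were higher at day 7 than at day 3 and none lower by edgeR's quasi-likelihood test, beside 16.1% and 13.4% of all genes, with medians of 0.83 for the members and 0.03 for all genes. C1qa was at 6.19, 5.65 and 6.65 CPM at day 3 and at 20.7, 15.1 and 19.5 CPM at day 7, a change of 1.58 (SE 0.29, adjusted p = 0.000255). The largest rise among those called was that of Siglec1, a sialic acid receptor induced by interferon, at 2.04 (SE 0.34, adjusted p = 9.19e-05). Interferon genes rose as well over this time, with 10 of 12 higher in control. Their part in the rise of Siglec1 was not tested. Csf1r, in contrast, was at 7.75, 6.49 and 7.21 CPM and at 6.86, 7.32 and 8.21 CPM, which overlap (0.06, SE 0.17, adjusted p = 0.832).

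With Erg, 40 of 46 members were higher at day 7 than at day 3 and none lower, against 15.6% and 14.4% of all genes, with medians of 2.3 and 0.00. At unadjusted p under 0.05, 1 member (Clec4n) was lower in control and 2 (Gpnmb and Tlr2) with Erg, and DESeq2 called 0 and 1 lower. C1qa went from 8.19, 8.25 and 10.6 CPM to 91.8, 93.7 and 92.8 CPM (3.36, SE 0.29, adjusted p = 3.96e-08). Fcgr1 went from 0.226, 0.342 and 0.404 CPM to 9.05, 7.48 and 7.77 CPM (4.57, SE 0.47, adjusted p = 3.52e-07). Both groups of libraries were apart. With Sox17, 30 were higher and 2 lower, beside 16.6% and 12.9% of all genes, with medians of 0.93 and 0.04. These became 10 and 0 when only the groups compared were fitted, and 12 and 0 in a test for changes beyond 1.5-fold. With SEG, 33 were higher and 1 lower, beside 14.3% and 12.9%, with medians of 1.26 and 0.00.

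**Figure D3:**
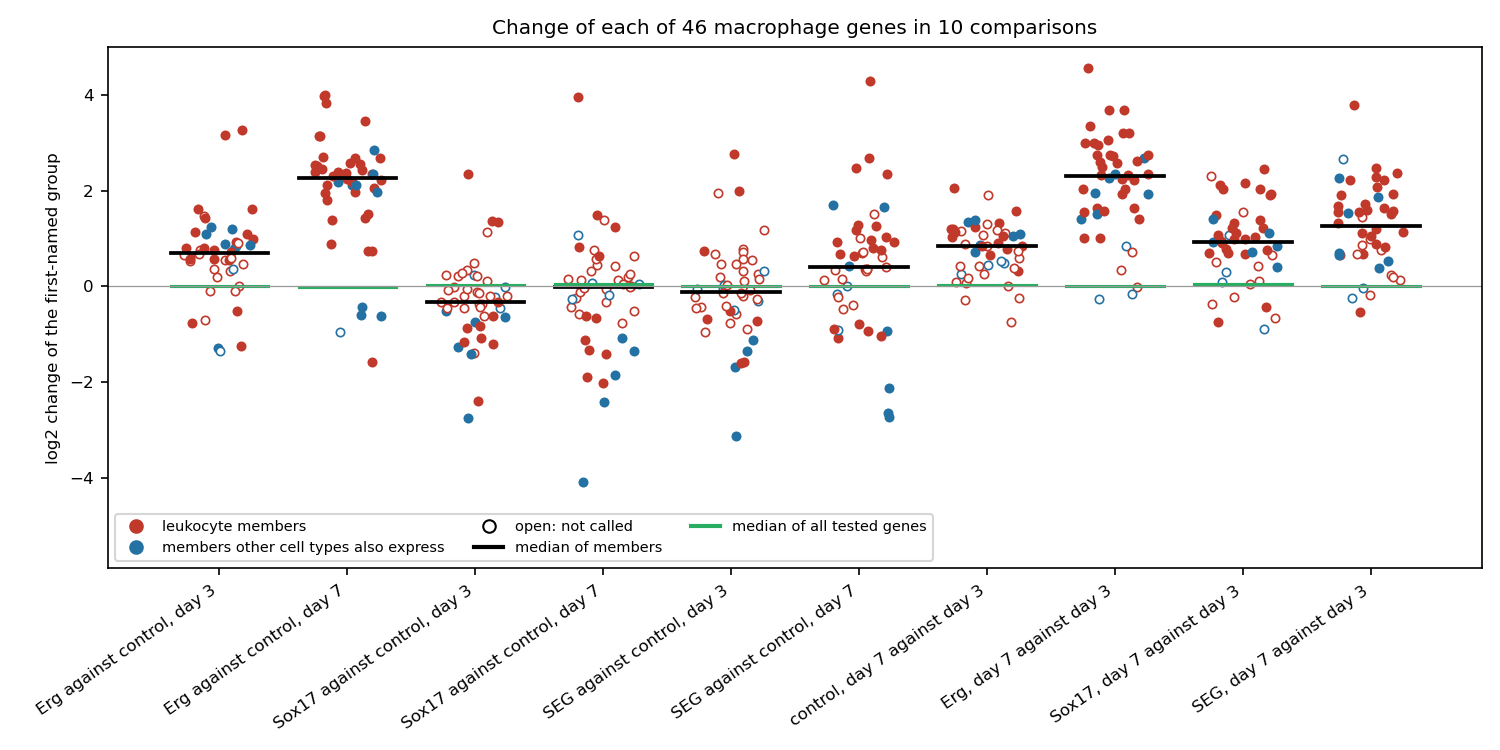
Log2 change of each of 46 members in 10 comparisons, with the median of the members (black) and of all tested genes (green), filled where adjusted p was under 0.05. The members' median is 2.27 for Erg against control at day 7 and lies between -0.33 and 0.70 in the other comparisons with control.

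With Sox17 the members did not share a direction at day 7. At day 3, 3 of 46 were higher and 14 lower than control, beside 20.8% and 19.6% of all genes, with medians of -0.33 and 0.01. At day 7, 5 were higher and 12 lower, beside 29.5% and 25%, with medians of -0.02 and 0.05, so that the share lower was near that of all genes. Between day 7 control and Sox17, fibroblast markers went from 28800 to 30970 CPM down to 7764 to 14430 CPM and smooth muscle and pericyte markers from 90.3 to 104.7 CPM up to 2533 to 4443 CPM, and their part in the result was not tested. Mrc1 was at 13.7, 10.4 and 11.7 CPM in day 7 control and at 1.86, 4.34 and 3.78 CPM with Sox17, without overlap (-1.85, SE 0.22, adjusted p = 7.34e-07). Siglec1 was at 15.4, 10.7 and 13.9 CPM and at 1.34, 4.37 and 4.23 CPM (-2.02, SE 0.33, adjusted p = 2.65e-05). Tlr2 was at 6.04, 5.40 and 4.72 CPM with Sox17 (-2.41, SE 0.11, adjusted p = 2.01e-13). Cd74 had 3 counts over the Sox17 day 7 libraries against 34 in control, which is 19.2-fold lower with a counting interval of 6.04 to 97.7. That interval pools the libraries and leaves out the spread between them. Control held 14, 3 and 17 counts, and Sox17 held 3, 0 and 0. Cd74 was over the filter's minimum in only 4 of the 24 libraries.

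Core lineage genes were not called with Sox17 at day 7. Csf1r was at 10.3, 6.33 and 5.89 CPM (0.01, SE 0.16, adjusted p = 0.955), Spi1 at 2.59, 1.53 and 1.10 CPM (0.05, SE 0.27, adjusted p = 0.90) and C1qc at 21.7, 15.4 and 11.9 CPM (0.14, SE 0.16, adjusted p = 0.482). In all 3 the libraries overlapped with control and replicate 1 was the highest. The 5 that rose were Cx3cr1, Clec7a, Coro1a, Trem2 and Tyrobp. Trem2 and Tyrobp passed only with Sox17 replicate 1, without which they were at 0.34 (adjusted p = 0.119) and 0.44 (adjusted p = 0.149). Trem2 was also lost without control replicate 3 (0.70, adjusted p = 0.0522), and Tyrobp without control replicate 1 (0.74, adjusted p = 0.0506) or 2 (0.37, adjusted p = 0.248). With only the groups compared in the fit, Coro1a (1.25, adjusted p = 0.0651), Trem2 (0.80, adjusted p = 0.157) and Tyrobp (0.63, adjusted p = 0.200) were lost. The count of 5 became 3 without Sox17 replicate 1 and 13 without replicate 3, where 12 were lower in both cases.

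Cx3cr1, the fractalkine receptor of resident macrophages and monocytes, was high in all 3 treated conditions at day 7. It was at 0.170, 0.273 and 0.127 CPM in control. It was at 3.60, 2.40 and 2.29 CPM with Erg, at 2.47, 4.04 and 2.57 CPM with Sox17 and at 4.16, 3.65 and 3.63 CPM with SEG. No treated library fell within the control range. The changes were 3.82 (SE 0.47, adjusted p = 1.11e-06), 3.96 (SE 0.46, adjusted p = 4.20e-07) and 4.29 (SE 0.46, adjusted p = 1.67e-07), all against the same control libraries. Erg differed neither from Sox17 (-0.14, SE 0.33, adjusted p = 0.752) nor from SEG (-0.47, SE 0.33, adjusted p = 0.261) beyond the spread between libraries. At day 3 it was higher with Sox17 (2.35, SE 0.60, adjusted p = 0.00332) and SEG (2.76, SE 0.59, adjusted p = 0.000751) and did not pass with Erg (1.46, SE 0.67, adjusted p = 0.0859).

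With SEG, more members than the share over all genes rose at day 7, and the share that fell was near that of all genes at both days. At day 3, 3 of 46 were higher and 9 lower than control, beside 20% and 20.2% of all genes, with medians of -0.12 and 0.01. At day 7, 19 were higher and 9 lower, beside 22.5% and 21.8%, with medians of 0.41 and 0.01. Beside these, between day 7 control and SEG, endothelial markers went from 28.7 to 32.3 CPM up to 2066 to 2364 CPM, smooth muscle and pericyte markers from 90.3 to 104.7 CPM up to 1524 to 1928 CPM, and neutrophil markers from 1.19 to 1.93 CPM up to 12.7 to 24.3 CPM. Their part in the result was not tested. Coro1a, a leukocyte actin regulator, was at 0.680, 0.955 and 1.14 CPM in day 7 control and at 7.65, 4.10 and 6.27 CPM with SEG, a change of 2.67 (SE 0.30, adjusted p = 2.92e-07). Lcp1 was at 15.6, 18.1 and 21.0 CPM with SEG, against 6.18, 5.23 and 6.05 CPM in control (1.65, SE 0.23, adjusted p = 7.27e-06). Csf1r was at 16.3, 12.6 and 15.1 CPM (0.97, SE 0.16, adjusted p = 5.15e-05), again above every control library. Clec7a (2.47, SE 0.37, adjusted p = 1.46e-05) and Aif1 (2.35, SE 0.63, adjusted p = 0.00432) rose too.

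The 3 largest falls with SEG were in members expressed outside the blood lineage. Gpnmb was at 192, 212 and 197 CPM at day 7, against 1367, 1324 and 1317 CPM in control (-2.74, SE 0.07, adjusted p = 1.04e-16). Cd14 was at 0.717, 0.492 and 0.693 CPM (-2.64, SE 0.23, adjusted p = 1.08e-08) and Tlr2 at 5.93, 6.61 and 7.21 CPM (-2.13, SE 0.11, adjusted p = 1.43e-12). Cd68 was at 7.84, 4.59 and 5.05 CPM against 11.7, 10.2 and 11.6 CPM (-0.94, SE 0.19, adjusted p = 0.000439). Libraries of all 4 were apart from control. The rises of C1qa (0.69), Spi1 (0.75) and Ctss (0.42) with SEG passed at adjusted p of 0.0425, 0.0271 and 0.0372. Each was lost without SEG replicate 1 (adjusted p of 0.132, 0.115 and 0.0618), SEG replicate 3 (0.0762, 0.0763 and 0.0938), control replicate 1 (0.0553, 0.0951 and 0.0696) or control replicate 3 (0.0736, 0.0560 and 0.0561). Those of C1qa and Ctss were also lost without control replicate 2 (0.157 and 0.128).

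Set directly against the other treated conditions at day 7, Erg stood above both. Against Sox17, 43 of 46 members were higher and 1 lower, beside 25.9% and 29.1% of all genes, with medians of 2.12 and -0.05. Against SEG, 39 were higher and 2 lower, beside 24.8% and 24.7%, with medians of 1.68 and -0.01. These comparisons share the Erg libraries. Mrc1 differed between Erg and Sox17 by 4.20 (SE 0.24, adjusted p = 8.18e-12), and Trem2 between Erg and SEG by 3.33 (SE 0.27, adjusted p = 2.36e-09). The 2 members lower with Erg than with SEG were Apbb1ip (-0.51, SE 0.12, adjusted p = 0.00124) and Coro1a (-1.25, SE 0.27, adjusted p = 0.000599).

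Whether the members moved together was examined next, since a change only in the share of 1 kind of cell would move each gene restricted to that cell by the same factor. With Erg at day 7, 23 of the 36 leukocyte members lay within 1.5-fold of their median log2 change of 2.36, and 28 lay within 2-fold. Libraries were then scaled to the leukocyte members themselves, a step chosen after the data were seen, so that each gene's change was read relative to the set. The centre of the members is near 0 there by construction. The scaling also shifts all other genes by about the set's median change, 2.36 for Erg and 0.03 for Sox17 at day 7. The share of all genes called on this scale is therefore no independent background. For Erg at day 7, 23 of 36 leukocyte members were then not called, 4 were higher and 9 lower, while 91.9% of all genes tested were called in either direction. Since a gene that is not called may still differ, these counts give the departures that could be seen at this precision.

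The departures with Erg were named genes at both ends. Above the set stood Clec4n (1.63), Cx3cr1 (1.48), Clec7a (1.12) and Ms4a7 (0.79). Below it stood Apbb1ip (-3.95), Itgb2 (-1.62), the platelet and macrophage chemokine gene Pf4 (-1.60), Cd53 (-1.48), the haptoglobin-haemoglobin receptor Cd163 (-0.95), Coro1a (-0.92), the integrin chain Itgam (-0.84), the pore-forming Mpeg1 (-0.56) and Lyz2 (-0.39), on the relative log2 scale. Among the 10 other members, 5 were lower, namely Cd74, Gpnmb, Cd14, Tlr2 and Ctss, and 5 were not called. Spi1, Csf1r, Ptprc, Adgre1, the C1q subunits, the Fc receptor genes and Tyrobp were among those not called. At day 3, 26 of 36 were not called, 3 higher and 7 lower, beside 71.1% of all genes called. The largest among those called was Trem2, at 2.55 above the set.

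With Sox17 at day 7, 23 of 36 were not called relative to the set, 6 were higher and 7 lower, beside 49.5% of all genes. Cx3cr1 was at 3.98 above it, and Siglec1 (-1.96), Cd53 (-1.87) and Itgb2 (-1.39) were below it. With SEG at day 7, 21 were not called, 6 were higher and 9 lower, beside 61.5%. Cx3cr1 (3.78), Coro1a (2.13) and Clec7a (1.94) were above, and Apbb1ip (-1.59), Siglec1 (-1.54) and Cd53 (-1.45) below. Without the replicate 1 libraries of Sox17 and SEG, an alternative chosen after the data were seen, 28 were not called, 3 higher and 5 lower with Sox17, beside 50.2% of all genes. With SEG these were 18, 8 and 10, beside 67.1%. Siglec1 was then at -1.57 with Sox17 and -1.30 with SEG, both still lower than the set. On the usual scale, its fall with SEG (-1.05) was not called without SEG replicate 1 (-0.80, adjusted p = 0.0679). Cx3cr1 and Clec7a were thus above the set, and Apbb1ip, Cd53, Itgb2 and Pf4 below it, in all 3 treated conditions, which share their control libraries, and also without those replicate 1 libraries. Between day 3 and day 7, 26 of 36 were not called in control, beside 67.4% of all genes called, and 19 of 36 with Erg, beside 92.9%.

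**Figure D4:**
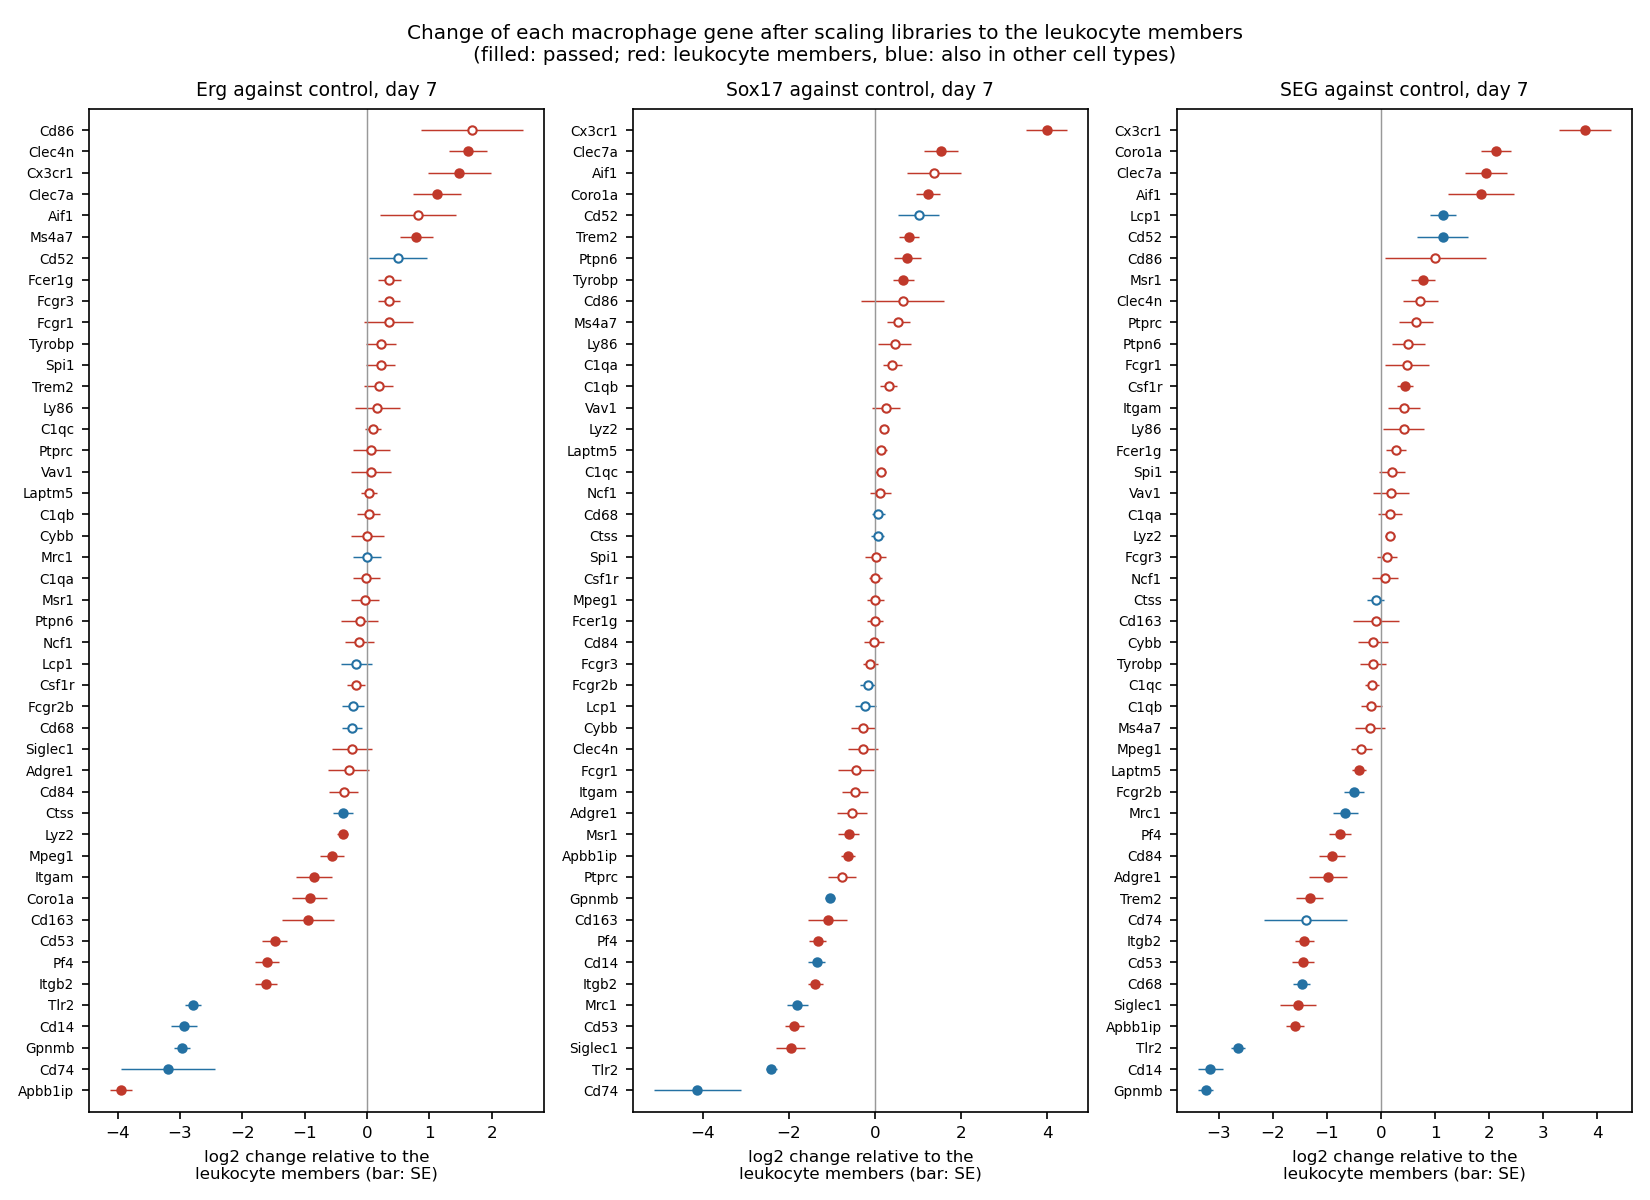
Log2 change of each member at day 7 with Erg, Sox17 and SEG against control after libraries were scaled to the leukocyte members, with SE bars, filled where adjusted p was under 0.05. Cx3cr1 and Clec7a lie to the right of 0 in all 3 panels and Apbb1ip, Cd53, Itgb2 and Pf4 to the left.

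The libraries that stand apart differed from their groups by transcript length. Leukocyte members were split at their median transcript length of 2423.5 bases, after the data were seen. In Sox17 replicate 1 at day 7, 15 of the 18 shorter members were above the mean of replicates 2 and 3, with a median log2 ratio of 0.65, and 6 of the 18 longer ones, with a median of -0.51. In SEG replicate 1 these counts were 15 of 18 and 8 of 18, with medians of 0.33 and -0.13. All tested genes split at the same length gave 0.67 and -0.40 for Sox17, and 0.30 and -0.16 for SEG. In Erg replicate 1 at day 7 the counts were 4 of 18 and 11 of 18. The short C1qa stood at 42.0 CPM in Sox17 replicate 1 and at 17.2 and 14.5 CPM in the others, while the long Siglec1 stood at 1.34 CPM and at 4.37 and 4.23 CPM. The cause of this split was not tested.

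**Figure D5:**
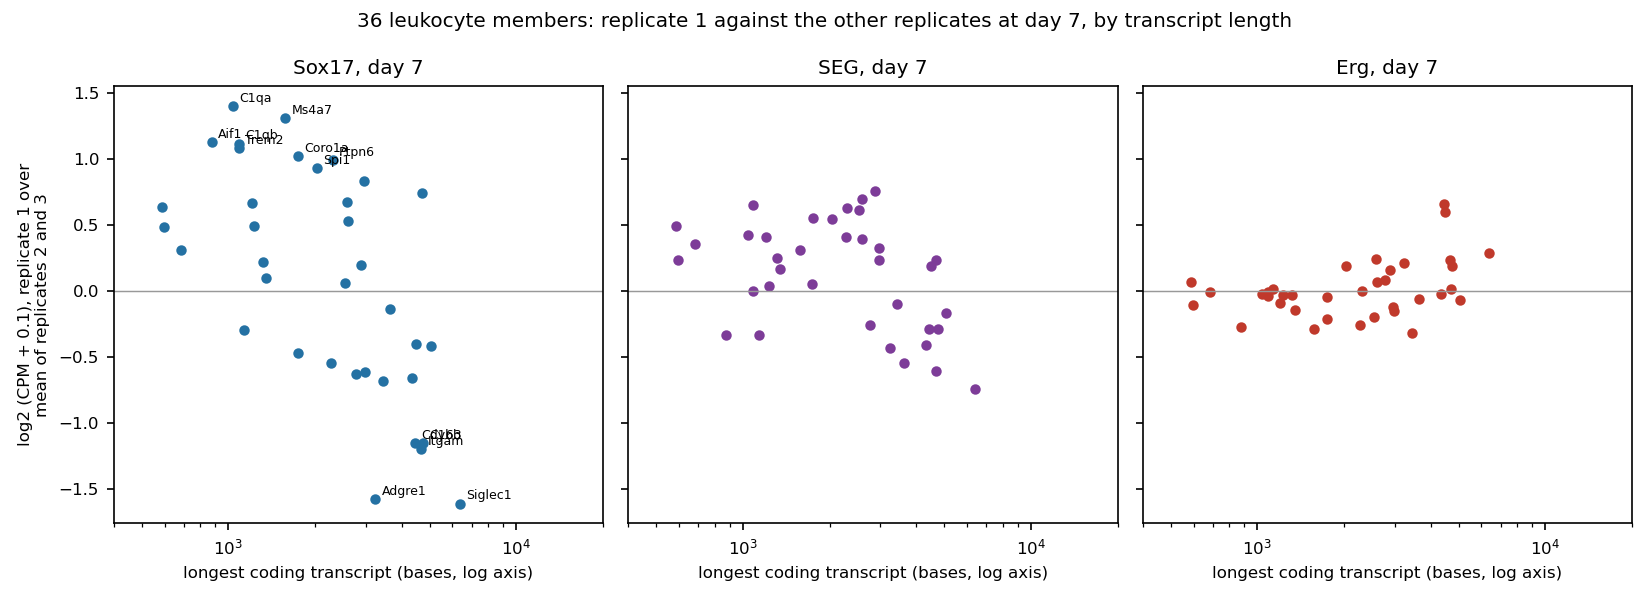
Log2 ratio of replicate 1 to the mean of replicates 2 and 3 at day 7 for the 36 leukocyte members, on CPM plus 0.1, against the length of the longest coding transcript on a log axis. The shorter members lie mostly above 0 in Sox17 and SEG, with medians of 0.65 and 0.33, and close to 0 in Erg.

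Beyond the members, 47 other genes of myeloid signalling and lysosomes were tested. With Erg at day 7, 27 rose and 7 fell, with a median of 0.97, beside the 23.7% and 24.8% of all genes. The largest rises were Alox5ap, the partner of 5-lipoxygenase, at 5.11 (SE 0.16, adjusted p = 7.44e-15), the transcription factor gene Irf8 at 3.73 (SE 0.16, adjusted p = 3.51e-13), the lymphoid and myeloid regulator Ikzf1 at 3.40 (SE 0.42, adjusted p = 1.45e-06) and the inhibitory receptor Cd300a at 3.21 (SE 0.40, adjusted p = 1.62e-06). Like Trem2, Irf8 was high at day 3 already. It was at 2.18, 2.23 and 2.15 CPM in day 3 control and at 86.6, 89.3 and 82.1 CPM with Erg, and at 86.9, 87.2 and 86.2 CPM with Erg at day 7. Alox5ap likewise was at 90.2, 77.9 and 89.0 CPM with Erg at day 3 and at 88.9, 82.7 and 91.9 CPM at day 7. The change of the effect was negative for Irf8 (-1.56, SE 0.22, adjusted p = 3.32e-05) and did not pass for Alox5ap (-0.50, SE 0.22, adjusted p = 0.120).

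Csf1, which encodes a ligand of Csf1r, moved the other way. Csf1 was at 1168, 1197 and 1262 CPM in day 7 control and at 699, 756 and 689 CPM with Erg (-0.76, SE 0.14, adjusted p = 0.000176). It was also lower with Sox17 (-1.69, SE 0.14, adjusted p = 5.30e-09) and SEG (-1.27, SE 0.14, adjusted p = 3.46e-07). Of the 47 genes, 5 rose and 19 fell with Sox17 at day 7, beside 29.5% and 25% of all genes. With SEG 9 rose and 15 fell, beside 22.5% and 21.8%.

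Among genes of resident heart macrophages, 4 of the 5 tested rose with Erg at day 7 and 1, Gas6, fell. Of all genes tested, 23.7% were higher and 24.8% lower. The 8 genes of the list summed to 4786 to 5526 CPM in day 7 control and to 1624 to 1723 CPM with Erg, a fall. Lyve1, a hyaluronan receptor that lymphatic endothelium also expresses, was at 3.69, 3.55 and 3.64 CPM in control and at 134, 120 and 108 CPM with Erg (5.06, SE 0.28, adjusted p = 1.80e-11). It was at 144, 134 and 148 CPM with Erg at day 3. Folr2, a folate receptor, rose by 2.06 (SE 0.31, adjusted p = 1.35e-05). All 5 fell with Sox17 at day 7, beside 25% of all genes tested.

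Class II antigen presentation genes were high with Sox17. At day 7, 4 of the 5 tested rose with Sox17, beside 29.5% of all genes tested. Cd74, whose chain pairs with class II, had 3 counts. H2-Ab1 was at 0.340, 0.545 and 0.550 CPM in day 7 control and at 30.7, 14.2 and 13.4 CPM with Sox17 (5.31, SE 0.37, adjusted p = 2.12e-10). It was at 0.739, 1.22 and 0.792 CPM with Erg (0.89, SE 0.43, adjusted p = 0.0937). H2-Aa was at 73.9, 50.0 and 44.5 CPM with Sox17 and at 9.99, 8.98 and 7.25 CPM with SEG, and at most 0.136 CPM in control and Erg libraries of day 7. Counts of histocompatibility genes are uncertain where alleles share sequence.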

How the data were processed

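RNA from 24 libraries was sequenced as mRNA, per the labels' protocols. The authors deposited 1 table of counts, whole numbers for 35727 gene identifiers, and the submitters' processing notes name Salmon, DESeq2 and mm10. The sources used here do not give the annotation release, the strand setting or how values were rounded. Of the identifiers, 305 carried no gene name.

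Counts were tested with edgeR 4.0.16 in R 4.3.3 by its quasi-likelihood F test on 8 group means over all 24 libraries, after a filter on low counts (minimum 10) that left 14804 genes, with TMM scaling. P-values were adjusted by Benjamini-Hochberg over all genes tested, and a call is an adjusted p under 0.05. The SE of a log2 change is its size divided by the square root of F. CPM uses the TMM-scaled library size. In data simulated for Erg against control at day 7 over 14804 genes, the test recovered 71 of the 100 genes set to 2-fold and 90 of the 100 set to 4-fold, and called 8 unchanged genes. All other genes and groups were simulated without differences or libraries standing apart, so these rates need not hold for the real data.

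Members and lists were chosen with earlier results of these data known. Values per library are given for defining members and for up to 6 called members with the largest rise and 6 with the largest fall in a comparison. Members named for standing apart from the set were chosen after their values were seen. Up to 4 genes are named from each other list. The fit scaled to the leukocyte members, the split by length, and leaving out both replicate 1 libraries that stand apart were chosen after seeing the data. Other alternatives were DESeq2 1.42.0, other size factors, no filter, a test beyond 1.5-fold, only the groups compared, a replicate block, and leaving out each library. Counts of near-identical paralogs such as the Fc receptor and C-type lectin genes are uncertain where reads could be shared. Depth limits the precision of members under 1 CPM. The 3 by 3 design gives a lowest exact permutation p of 0.10 for a single value, so no such test was run.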

Additional observations from a re-analysis of the deposited data

Results flagged for a closer look

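For 15 of the members followed in every library, the Erg effect differed between day 3 and day 7 by the direct test of that difference (edgeR's quasi-likelihood test, Benjamini-Hochberg adjusted p under 0.05). On the log2 scale the day 7 effect was larger by 3.39 for Fcgr1, 1.99 for Spi1, 1.88 for C1qc, 1.86 for Csf1r, 1.85 for C1qb, 1.8 for Tyrobp and 1.78 for C1qa. It was larger by 1.75 for Ptprc, 1.72 for Fcer1g, 1.62 for Ctss, 1.48 for Mrc1, 1.39 for Lcp1 and 1.39 for Lyz2. The differences for Adgre1 (1.44, adjusted p = 0.0426) and Cd68 (0.86, adjusted p = 0.0274) passed near the threshold, and their calls were lost in many leave-outs. That of Adgre1 was lost on leaving out any 1 of 10 of the 12 libraries, all but Erg day 3 replicate 1 and control day 7 replicate 1, with values of 1.26 to 1.54 and adjusted p of 0.0527 to 0.108. That of Cd68 was lost without control day 3 replicate 1 or 2, Erg day 3 replicate 2, control day 7 replicate 2, or Erg day 7 replicate 1 or 3, with values of 0.77 to 0.87 and adjusted p of 0.0502 to 0.0796.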

How the results depend on the processing

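Against control, the count of members higher with Erg at day 7 was 41 in the main test and 41 on leaving out each library, with 3 to 4 lower. The same leave-outs gave 18 to 19 higher and 3 to 4 lower for Erg at day 3. They gave 2 to 3 and 10 to 12 for Sox17 at day 3, 3 to 13 and 10 to 14 for Sox17 at day 7, 3 to 4 and 6 to 9 for SEG at day 3, and 14 to 21 and 7 to 9 for SEG at day 7. For day 7 against day 3 they gave 16 to 20 and 0 in control, 39 to 40 and 0 with Erg, 22 to 30 and 1 to 2 with Sox17, and 29 to 32 and 1 with SEG. For Erg against Sox17 they gave 42 to 44 and 1, for Erg against SEG 36 to 41 and 2, and for the change of the Erg effect 26 to 31 and 2.

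With only the groups compared in the fit, which leaves fewer libraries to estimate the spread, 1 member was higher with Sox17 at day 3, 2 with Sox17 at day 7 and 5 with SEG at day 3. In that fit 10 were higher and 0 lower over time with Sox17, 1 was lower over time with Erg, and 4 were lower for the change of the Erg effect. Testing for changes beyond 1.5-fold asks for a larger change. It left 9 higher and 2 lower with Erg at day 3, 1 lower with Erg at day 7, 4 lower with Sox17 at day 3, 3 higher with Sox17 at day 7, 4 lower with SEG at day 3, and 9 higher and 5 lower with SEG at day 7. Over time it left 10 higher in control, 12 higher and 0 lower with Sox17, and 21 higher and 0 lower with SEG. It left 1 lower for Erg against SEG and 20 higher for the change of the Erg effect. DESeq2 called 1 member lower over time with Erg. Without Sox17 and SEG replicate 1 of day 7, 3 were higher with Sox17 at day 7, 2 lower over time with Erg and 4 lower for the change of the Erg effect. The cause was not tested.

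The log2 ratio of the summed leukocyte members was 0.235 for Erg at day 3, and 0.039 without Lyz2, its most abundant member, beside a median of 0.626. It was 1.70 for Erg at day 7 (median 2.357) and 1.98 for Erg over time (2.225 without Lyz2, median 2.413). For Sox17 it was -0.098 at day 3 (0.0053 without Lyz2, median -0.213) and -0.110 at day 7 (-0.233 without Lyz2, median 0.029). Its sign changed at each day, but its SD between libraries was 0.106 at day 3 and 0.212 at day 7. Neither ratio lay beyond that spread around 0. For SEG the ratio also changed sign. At day 3 it went from 0.189 (SD 0.049) to -0.175 without Lyz2 and to a median of -0.031. At day 7 it went from 0.191 (SD 0.186) to -0.026 without Lyz2, where the median was 0.650. Both versions of the sum include Apbb1ip, which fell with Erg. The mean share of Apbb1ip in the sum was 30.38% in day 3 control and 26.53% in day 7 control. At day 3 it was 10.85% with Erg, 34.88% with Sox17 and 22.94% with SEG. At day 7 it was 2.706%, 18.43% and 11.02%. A sum without Apbb1ip was not computed, so its part in the gaps between sums and medians was not tested.

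Over all pairs, libraries with the same replicate number were no more alike at the median than others. Deviations of same-numbered libraries correlated at -0.416 to 0.69 (median 0.003 over 84 pairs), beside -0.632 to 0.482 (median 0.006) for other numbers. The medians do not speak to single pairs of libraries, which were not tested. With the replicate block, all 26 counts of members stayed within 1.5 times, at 41 higher for Erg at day 7, but 4 named calls were lost. These were Cd86 (3.08, adjusted p = 0.0607) and Tyrobp (0.76, adjusted p = 0.0541) with Erg at day 3, Tyrobp with Sox17 at day 7 (0.63, adjusted p = 0.0547), and Adgre1 for the change of the Erg effect (1.42, adjusted p = 0.0592). Of the named changes under all alternatives, 2424 values kept direction and call, 168 lost the call, 49 of them in the test beyond 1.5-fold, and none reversed. Depth limits members under 1 CPM.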
